A study of Mus musculus with 6 samples.

Results

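The 50 genes described here encode parts of the kinetochore, the spindle checkpoint, the mitotic kinases, the machinery of anaphase and cytokinesis, and condensin with topoisomerase II. They were chosen by name, with earlier results of these data known. A gene counted as measured where a probe set of the array carried its symbol and no other. All 50 were measured, by 107 probe sets, among 18193 genes in all. RNA came from C2C12, an established line of mouse myoblasts, seeded at 1500 cells per square centimetre. After 1 day in DMEM with 10% newborn calf serum the cells received the same medium with 10 µM 5-azacytidine (5AC), a cytidine analogue that inhibits DNA methylation, or without it, for 3 days, and RNA was taken from subconfluent cells (3 samples in each group). Each RNA was hybridised to 1 Affymetrix array, so the comparison asks which of these transcripts differ after 5AC. Whether replicates were grown apart is not said in the labels, so each p-value reflects the array-to-array spread alone, part or all of which may be technical. The number of arrays limits the precision.

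The kinetochore is built on centromeric chromatin that carries the histone CENP-A. An inner layer of CENP proteins binds this chromatin, and an outer layer, which includes the NDC80 and MIS12 complexes, holds the ends of spindle microtubules. Kinetochores without microtubules produce a checkpoint signal that restrains CDC20, the activator of the anaphase-promoting complex, and condensin with topoisomerase II compacts and untangles the chromosomes beforehand. Many of these transcripts are made mainly in G2 and mitosis, so dividing myoblasts contain more of them than cells that have left the cycle to form muscle. In RNA of a whole culture, fewer cells in these phases and less RNA per cell cannot be told apart.

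Cultures given 5AC contained less RNA of 44 of the 50 genes, or 88%, and more of none (limma, adjusted p under 0.05), and 6 did not pass the test. At an unadjusted p under 0.05, 1 gene, Zw10, was higher. Of all genes tested, 13.8% were lower and 15.6% higher, and of the 9381 genes at least as bright as the dimmest of the 50, 23.4% were lower. The median log2 change of the 50 was -0.65, against 0.01 over all genes, and single changes ran from -1.62 for the phosphatase gene Cdc25c to 0.20 for Zw10. A log2 change is 5AC minus untreated, on the scale of log2(intensity + 1), with the standard error (SE) of the fit and 3 arrays in each group. In 46 of the 50 genes all 3 treated values lay below all 3 untreated values, which held for 21.2% of all genes. A fall of at least 2-fold was found in 5 of the 50, Cenpa, Cenpi, Nuf2, Cdc25b and Cdc25c, and in 2.09% of all genes, or 2.78% of the 9381 bright ones. Left out singly, the 6 arrays gave 38 to 42 lower genes, the fewest without 5AC replicate 1. The 6 genes not past the threshold were Cenpt, Ndc80, Nsl1, Zw10, Bub3 and Espl1.

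**Figure D1:**
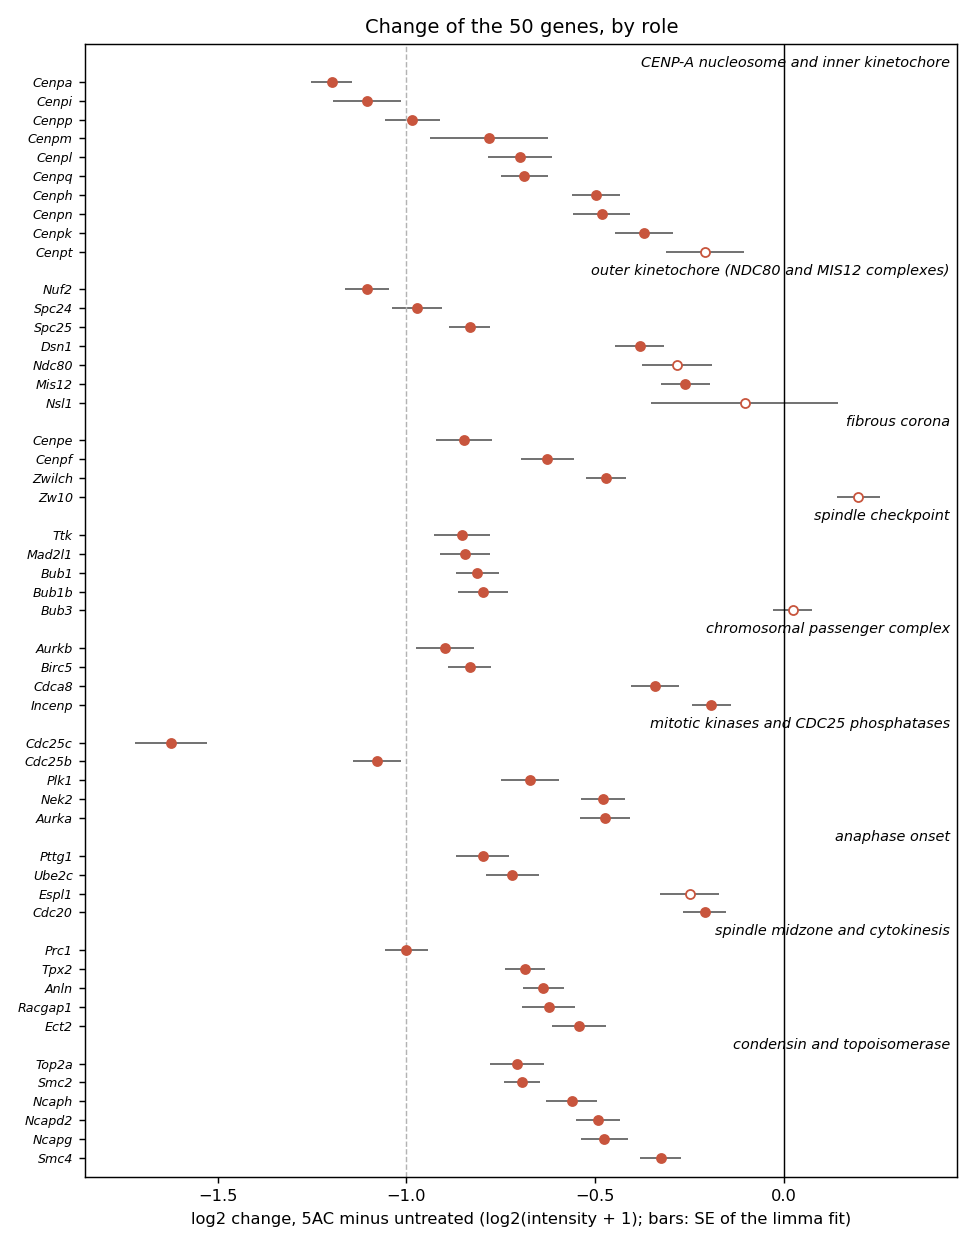
Log2 change (5AC minus untreated) of each of the 50 genes on the horizontal axis, grouped by role, with the SE of the limma fit as bars and the dashed line at a 2-fold fall. Filled points mark the 44 genes lower at adjusted p under 0.05 and open points the 6 that did not pass. Cdc25c lies farthest to the left at -1.62, while Zw10 at 0.20 and Bub3 at 0.02 lie to the right of 0.

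The promoters of these genes were read for the elements through which late cell cycle genes are known to be controlled. The cell cycle genes homology region (CHR) is bound by the MuvB core of the DREAM and MYB complexes, which repress or activate genes by cell cycle phase, and CCAAT boxes are bound by NF-Y. RefSeq windows (GRCm38.p6) of 300 bases, from 250 before the start to 50 after it, were present for 42 of the 50 genes, in 47 windows. The CHR was searched on both strands as TTTGAA, which reads as TTCAAA where it lies on the opposite strand, and in its other form as TTTAAA. The NF-Y box was searched as CCAAT, which reads as ATTGG on the opposite strand. Matches that shared bases were counted for each motif. Stretches from 150 bases before the start to 30 after it are shown for 5 genes of 4 roles that fell and hold both kinds of letters, as 20 of the genes that fell do, with Bub3, which did not pass the test, beside them. They are from GRCm38.p6: Cenpa (chr5:30666736-30666915, plus strand), Ttk (chr9:83834539-83834718, plus strand), Plk1 (chr7:122159285-122159464, plus strand), Cdc20 (chr4:118437314-118437493, minus strand), Ube2c (chr2:164769779-164769958, plus strand) and Bub3 (chr7:131560220-131560399, plus strand). Capitals mark these letters on either strand, and each line reads 5′ to 3′ on the strand of the gene.
Cenpa: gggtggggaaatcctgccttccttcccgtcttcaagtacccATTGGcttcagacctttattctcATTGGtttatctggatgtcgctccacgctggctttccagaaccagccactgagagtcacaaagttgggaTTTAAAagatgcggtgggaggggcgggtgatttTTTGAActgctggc
Ttk: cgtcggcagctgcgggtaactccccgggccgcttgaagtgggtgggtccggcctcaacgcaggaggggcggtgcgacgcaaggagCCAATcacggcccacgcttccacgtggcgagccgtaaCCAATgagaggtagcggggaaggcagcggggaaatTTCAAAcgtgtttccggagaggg
Plk1: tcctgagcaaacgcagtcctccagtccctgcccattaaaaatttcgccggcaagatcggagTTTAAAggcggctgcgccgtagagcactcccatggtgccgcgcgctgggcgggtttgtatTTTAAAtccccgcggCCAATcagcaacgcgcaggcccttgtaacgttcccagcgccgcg
Cdc20: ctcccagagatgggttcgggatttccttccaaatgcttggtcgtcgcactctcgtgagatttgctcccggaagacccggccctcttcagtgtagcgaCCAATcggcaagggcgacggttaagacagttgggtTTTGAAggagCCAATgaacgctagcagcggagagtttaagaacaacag
Ube2c: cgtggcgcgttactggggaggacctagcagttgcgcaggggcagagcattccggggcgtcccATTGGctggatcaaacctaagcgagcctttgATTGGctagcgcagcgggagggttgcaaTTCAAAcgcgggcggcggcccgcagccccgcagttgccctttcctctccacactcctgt
Bub3: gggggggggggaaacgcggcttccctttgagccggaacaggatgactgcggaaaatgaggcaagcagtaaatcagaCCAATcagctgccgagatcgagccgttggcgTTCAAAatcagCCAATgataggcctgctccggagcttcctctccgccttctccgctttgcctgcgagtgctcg
In Cdc20 the TTTGAA begins 18 bases before the start, between CCAAT boxes that begin 53 and 8 bases before it. Ube2c has TTCAAA beginning 29 bases before the start and ATTGG beginning 88 and 57 before it. For Plk1 the stretch shows TTTAAA only, since its TTTGAA begins at base 31 after the start, past the end of the stretch. Bub3, at the upstream of its 2 starts in the table, has TTCAAA 43 bases before the start and CCAAT 74 and 32 before it.

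TTTGAA was found in 27 of the 47 windows (57.4%) and in 17.9% of all 32851 windows of the table. TTTAAA was found in 8 (17.0%), against 13.2% of all windows. CCAAT was found in 36 (76.6%), against 37.4%, and at least 2 CCAAT boxes in 21 (44.7%), against 11.7%. Either hexamer within 50 bases of the start, together with a CCAAT anywhere in the window, was found in 22 (46.8%), against 3.35% of all windows. By gene, 22 of 37 that fell and had a window held either hexamer anywhere in it. So did all 5 of those with a window that did not pass the test. Within 50 bases of the start the counts were 19 of these 37 and 3 of these 5. CCAAT was held by 29 of the same 37 and by 2 of the same 5. A match is a description of letters and not of binding, and the windows of Bub3, Ect2 and Prc1 overlap within each gene, while the 3 of Cenpk do not.

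**Figure D2:**
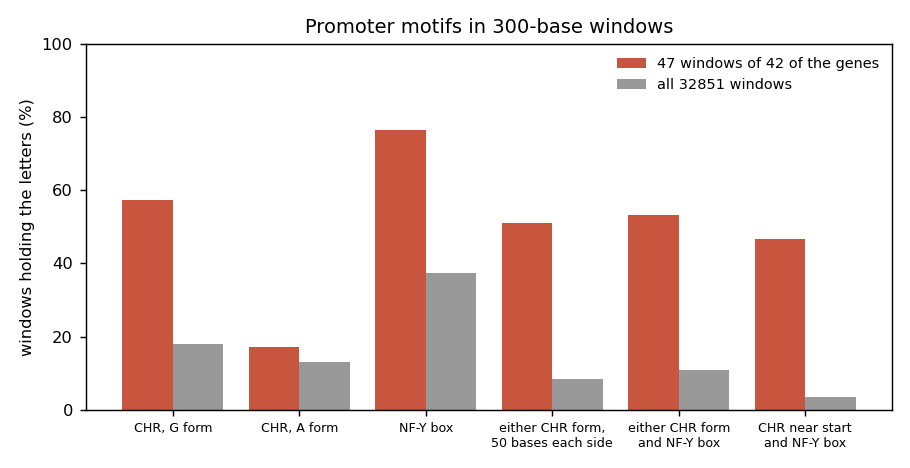
Share of promoter windows (%) that hold each motif, for the 47 windows of 42 of the genes and for all 32851 windows; the G form of the CHR is TTTGAA, the A form TTTAAA and the NF-Y box CCAAT. The shares were 57.4% against 17.9% for the G form and 76.6% against 37.4% for the NF-Y box, while for the A form they were 17.0% and 13.2%.

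At the centromere and inner kinetochore 9 of 10 genes fell, with a median log2 change of -0.69. Cenpa, the centromeric histone, was at intensities of 978, 962 and 998 on the untreated arrays and at 424, 412 and 443 on the 5AC arrays. The groups were far apart, with a log2 change of -1.20 ± 0.05 (adjusted p = 0.000456). Cenpi, a subunit of the constitutive centromere network, was at 364, 358 and 381 untreated and at 176, 152 and 185 treated. Each treated value was below every untreated one, and the change was -1.10 ± 0.09 (adjusted p = 0.00137). Cenpp, of the same network, fell by 0.98, Cenpm by 0.78, Cenpl by 0.70 and Cenpq by 0.69 on the log2 scale. Smaller falls were those of Cenph, which forms a unit with Cenpi and Cenpk, at -0.50 ± 0.06, of Cenpn, which recognises the CENP-A nucleosome, at -0.48 ± 0.08, and of Cenpk, at -0.37 ± 0.08. The call of Cenpk was lost without each array other than untreated replicate 3 (adjusted p = 0.0585 to 0.0742). That of Cenpm was lost without untreated replicate 2, untreated replicate 3 or 5AC replicate 1 (adjusted p = 0.0550 to 0.0613).

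Cenpt, which links the inner layer to the NDC80 complex, did not pass. It was at 293, 274 and 274 untreated and at 226, 225 and 279 treated. Treated replicate 3 lay among the untreated arrays, so the groups overlapped, and the change was -0.21 ± 0.10 (adjusted p = 0.209). Without 5AC replicate 3 it was -0.31 (adjusted p = 0.0406).

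In the outer kinetochore 5 of 7 genes fell, with a median of -0.38, among them 3 of the 4 subunits of the NDC80 complex. Nuf2 was at 356, 351 and 375 untreated and at 164, 163 and 175 treated. That is a fall to less than the lowest untreated value on every treated array, with a log2 change of -1.10 ± 0.06 (adjusted p = 0.000608). Spc24 was at 257, 264 and 236 untreated and at 128, 124 and 132 treated, again without overlap, with a change of -0.97 ± 0.07 (adjusted p = 0.000963). Its partner Spc25 fell by 0.83. A dim second probe set of Spc25 was higher on every treated array (11.5, 11.6 and 7.51 untreated, 18.98, 18.1 and 14.9 treated) without passing (adjusted p = 0.0656). With the mean of both the call for Spc25 was lost (-0.053, adjusted p = 0.778). Ndc80, which with Nuf2 forms the microtubule-binding end of the complex, was at 154, 174 and 186 untreated and at 133, 139 and 149 treated. These groups did not overlap either, yet the change of -0.28 ± 0.09 missed the threshold (adjusted p = 0.0786). Without untreated replicate 1, the lowest of its group, it was -0.36 (adjusted p = 0.0477), and it also passed as lower without dim genes (0.0308) and with an intensity trend (0.0214). Whether Ndc80 changed less than its partners was not tested.

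Of the MIS12 complex, which joins the NDC80 complex to the inner layer, Dsn1 fell by 0.38 (adjusted p = 0.0113). Mis12 fell by 0.26 (adjusted p = 0.0350), a call lost with any of the 6 arrays left out (adjusted p = 0.0533 to 0.111). Nsl1 was the dimmest of the 50 genes, at 43.9, 50.1 and 27.9 untreated and 31.0, 41.3 and 38.5 treated. Its groups overlapped, and the change was -0.10 ± 0.25 (adjusted p = 0.803). Its other probe set gave -0.52 ± 0.14, also not past the threshold over all probe sets (adjusted p = 0.0684).

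The fibrous corona is the outermost layer, which forms on kinetochores that lack microtubules, and 3 of its 4 genes fell. Cenpe, a kinesin motor that moves chromosomes to the spindle equator, was at 444, 436 and 430.0 untreated and at 261, 223 and 244 treated. It fell on every treated array, with a log2 change of -0.85 ± 0.07 (adjusted p = 0.00164). Cenpf, a large microtubule-binding protein, was at 489, 477 and 499 untreated and at 309, 298 and 341 treated. The change was -0.63 ± 0.07 (adjusted p = 0.00307), without overlap. Zwilch and Zw10 encode subunits of 1 complex, RZZ, which brings the motor dynein and the checkpoint proteins to kinetochores. Zwilch fell by 0.47 (adjusted p = 0.00314). Zw10, which also acts in transport between the endoplasmic reticulum and the Golgi, was at 286, 278 and 272 untreated and at 309.6, 334 and 315 treated. It alone of the 50 had all treated values above all untreated values, which held for 24.2% of all genes. Its change of 0.20 ± 0.06 did not pass (adjusted p = 0.0548). It passed as higher under 4 of the alternatives, among them quantile normalization (0.25, adjusted p = 0.0290), and was -0.051 as the mean of its probe sets.

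Among the checkpoint genes 4 of 5 fell by similar amounts and Bub3 did not pass. Ttk, the kinase MPS1 that starts the signal, was at 247, 236 and 264 untreated and at 139, 129 and 144 treated. Mad2l1, whose product MAD2 binds CDC20, was at 1189, 1128 and 1127 untreated and at 661, 597 and 659.9 treated. Neither gene's groups overlapped, with log2 changes of -0.85 ± 0.07 (adjusted p = 0.00159) and -0.84 ± 0.07 (adjusted p = 0.00127). The kinase gene Bub1 and Bub1b, which encodes BUBR1, fell by 0.81 and 0.80. Bub3, the scaffold that carries both to the kinetochore, was at 1360.0, 1320.3 and 1287 untreated and at 1327, 1338 and 1365 treated. The groups overlapped and the change was 0.02 ± 0.05 (adjusted p = 0.787). This probe set has the suffix that Affymetrix gives to probes shared between transcripts. The next brightest, specific to Bub3 by its suffix, was at 119, 106 and 119 untreated and at 95.4, 93.1 and 94.3 treated. It gave -0.28, which passed when it stood for the gene (adjusted p = 0.0328), so the direction for Bub3 depends on the probe set. Suffixes for shared probes (_s or _x) also mark the probe sets that stood for Cdc25c, Aurkb, Prc1, Pttg1, Nek2, Cdca8, Incenp, Cdc20 and Ncaph. Where probe sets without them were preferred, 45 of the 50 genes were lower and 0 higher.

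All 4 genes of the chromosomal passenger complex fell, which corrects wrong attachments and later acts at the cleavage site. Its kinase gene Aurkb was at 369, 389 and 379 untreated and at 204, 187 and 219.5 treated. Birc5, the subunit survivin, was at 1595, 1575 and 1611 untreated and at 882, 865 and 939 treated. The groups of both were clearly separate, with log2 changes of -0.90 ± 0.08 (adjusted p = 0.00154) and -0.83 ± 0.06 (adjusted p = 0.000952). The other subunits changed less: borealin, Cdca8, by -0.34 ± 0.06 and the scaffold Incenp by -0.19 ± 0.05 (adjusted p = 0.0457). The call of Incenp was lost with any 1 array left out (adjusted p = 0.0894 to 0.129), and that of Cdca8 without 5AC replicate 1 (0.0570) or 5AC replicate 2 (0.0523). Tested over all probe sets, that of Incenp did not pass (adjusted p = 0.121), and neither did any other probe set of Incenp.

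Of the 5 genes for kinases and phosphatases that drive mitotic entry all fell, and Cdc25c and Cdc25b fell most. CDC25 phosphatases remove the inhibitory phosphates from cyclin-dependent kinase. Another gene of this family, Cdc25a, was listed among the related genes and did not pass, at -0.12 ± 0.07 (adjusted p = 0.289). Cdc25c was at 181, 200.3 and 199 untreated and at 69.9, 57.6 and 59.5 treated. Every treated value was well below the untreated ones, and the log2 change was -1.62 ± 0.10 (adjusted p = 0.000717). Cdc25b was at 347, 370.0 and 343 untreated and at 173, 158 and 169.6 treated. It likewise showed no overlap, with a change of -1.08 ± 0.06 (adjusted p = 0.000706). Plk1, which acts from entry to cytokinesis, fell by 0.67, the centrosomal kinase gene Nek2 by 0.48 and the spindle pole kinase gene Aurka by 0.47.

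**Figure D3:**
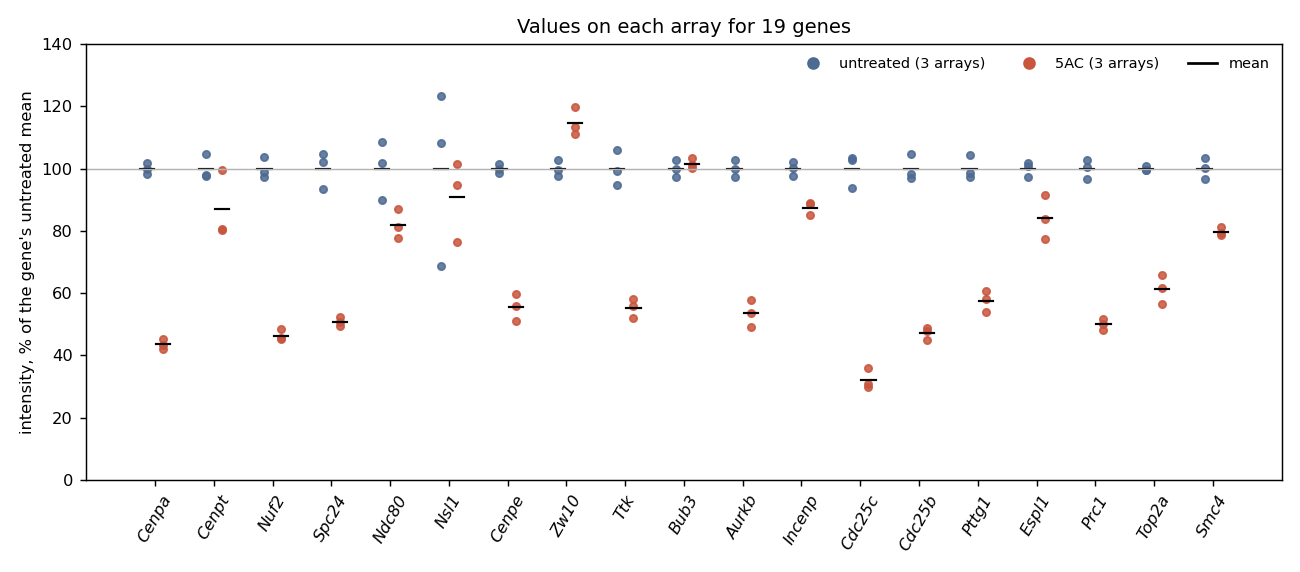
Intensity on each of the 6 arrays as a percentage of the gene's own untreated mean, for 19 of the 50 genes, with untreated arrays in blue, 5AC arrays in red and black lines for the means. Cenpa, Nuf2, Cdc25b and Cdc25c lie far below 100 on all treated arrays, Zw10 lies above it, and Bub3 and Nsl1 overlap.

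Genes of anaphase onset differed in size, and 3 of 4 fell. Pttg1, which encodes securin, the inhibitor of separase, was at 2196, 2079 and 2048 untreated and at 1224, 1134 and 1281 treated. Ube2c, the ubiquitin-conjugating enzyme of the anaphase-promoting complex, was at 1687, 1668 and 1671 untreated and at 1011, 951 and 1096 treated. All treated values of both were lower, with changes of -0.80 ± 0.07 (adjusted p = 0.00161) and -0.72 ± 0.07 (adjusted p = 0.00207). Espl1, which encodes separase itself, was at 241, 253 and 250.2 untreated and at 208, 192 and 227 treated. The groups did not overlap, but the change of -0.25 ± 0.08 did not pass (adjusted p = 0.0705). It passed as lower without 5AC replicate 3 (-0.31, adjusted p = 0.0468), and also without dim genes (0.0263), with an offset of 16 (0.0456) and with an intensity trend (0.0141). Cdc20 fell by 0.21 (adjusted p = 0.0449), a call lost with any array left out (adjusted p = 0.0821 to 0.123). Tested over all probe sets, that probe set did not pass (adjusted p = 0.112), while the other 2 of Cdc20 did, at -0.45 ± 0.08 and -0.37 ± 0.06 (adjusted p = 0.0200 and 0.0194).

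The 5 genes grouped under spindle midzone and cytokinesis, which include the spindle gene Tpx2, all fell. Prc1, which bundles the antiparallel microtubules of the midzone, was at 805, 758 and 787 untreated and at 392, 377 and 405 treated. Tpx2, which activates Aurora A and nucleates spindle microtubules, was at 577, 570.1 and 599 untreated and at 371, 350.5 and 362 treated. Both showed a clear gap between the groups, with changes of -1.00 ± 0.06 (adjusted p = 0.000655) and -0.69 ± 0.05 (adjusted p = 0.00123). Anillin, Anln, a scaffold of the contractile ring, fell by 0.64. Racgap1, a subunit of centralspindlin, and Ect2, the exchange factor that activates RhoA at the cleavage site, fell by 0.62 and 0.54.

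Topoisomerase II alpha and all 5 condensin genes fell, with a median of -0.53. Top2a was at 1283, 1299 and 1284 untreated and at 794, 729 and 849.8 treated. Smc2, an ATPase subunit that both condensins share, was at 1189.6, 1143 and 1165 untreated and at 711, 728 and 723 treated. Neither overlapped, with changes of -0.71 ± 0.07 (adjusted p = 0.00244) and -0.69 ± 0.05 (adjusted p = 0.00101). Smc4, which pairs with Smc2, fell by 0.33 (adjusted p = 0.00968). The condensin I subunits Ncaph, Ncapd2 and Ncapg lay between, at -0.56 ± 0.07, -0.49 ± 0.06 and -0.48 ± 0.06.

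For 31 of the 50 genes the array held several probe sets. Of the 107 probe sets, 66 were lower and 0 higher when each was tested over all 45037 (limma, adjusted p under 0.05; 2 were higher at an unadjusted p under 0.05), and of all probe sets 8.75% were lower and 8.15% higher. Of 89 with a mean at or above the median probe set, 85 had a change below 0 and 64 passed. Of the 18 dimmer ones 2 passed. In 28 genes with several of the brighter probe sets, the highest and lowest change differed by 0.21 in the median and by at most 1.26, in Cenpp, where a probe set just above that median gave 0.28 ± 0.20 and did not pass. With the mean of all probe sets of a gene, bright and dim, 9 calls were lost: those of Spc25, Cenpk, Mis12 and Incenp, and those of Bub1b (-0.33, adjusted p = 0.169), Aurka (-0.29, adjusted p = 0.421), Nek2 (-0.27, adjusted p = 0.0944), Racgap1 (-0.66, adjusted p = 0.0923) and Ncapd2 (-0.35, adjusted p = 0.0683). Mis12 has a single probe set, so its change stayed at -0.26, and its call was lost through the fit and adjustment over the other genes. For Pttg1 the brighter probe sets gave -0.80, -1.20 and -0.48.

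**Figure D4:**
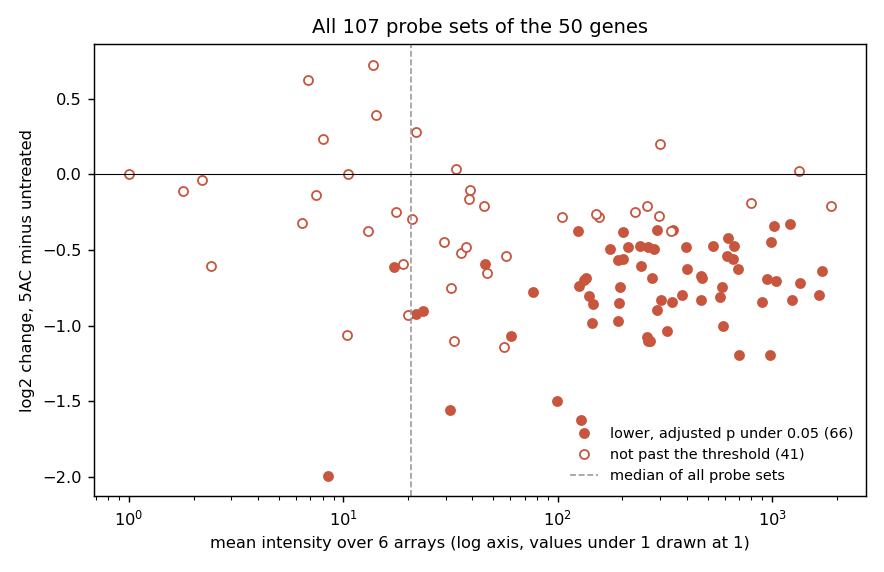
Log2 change (5AC minus untreated) of all 107 probe sets of the 50 genes against their mean intensity over 6 arrays on a log axis, with filled points for the 66 that were lower at adjusted p under 0.05. The dashed line marks the median of all probe sets; to its right 85 of 89 points lie below 0.

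Other genes of chromosome segregation and mitotic control, 83 of 85 listed being measured, were lower in 45 cases, higher in 8 and not past the threshold in 30, with a median log2 change of -0.31. Of 47 further kinetochore, checkpoint, condensin and cohesion genes 26 fell and 5 rose, where 13.8% of all genes were lower and 15.6% higher. Knstrn, a kinetochore protein, had a change of -1.11 ± 0.09, Cenpx of -1.05 ± 0.14, the histone kinase gene Haspin of -0.96 ± 0.18 and Cenpw of -0.91 ± 0.08. The 5 that rose, named after their values were seen, were Wapl, which releases cohesin from chromatin, at 0.86 ± 0.06, the cohesin loader Nipbl at 0.49 ± 0.09, Cenpv at 0.47 ± 0.05, the cohesin subunit Stag1 at 0.45 ± 0.06 and the cohesin acetyltransferase Esco1 at 0.29 ± 0.05. Other cohesin and cohesion genes of the list fell or did not pass. The ATPase subunit genes Smc1a and Smc3 fell by 0.74 and 0.31, Cdca5 by 0.66 and Esco2 by 0.70. Sgo1 and Sgo2a fell by 0.58 and 0.84. Rad21, the kleisin subunit of cohesin, at -0.19 ± 0.07, did not pass (adjusted p = 0.116). Neither did Stag2 at -0.14 ± 0.07, Pds5a at -0.02 ± 0.07 and Pds5b at -0.18 ± 0.07.

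Among 16 genes of the anaphase-promoting complex and its regulators 7 fell and 2 rose. Fbxo5, the inhibitor EMI1, fell from 461 ± 4.15 to 199.6 ± 24.6 (mean ± SD, n = 3 each), which is -1.21 ± 0.10 in log2 change. Anapc7, a subunit of the complex, rose by 0.69 ± 0.05, while the ubiquitin-conjugating enzyme genes Ube2s and Ube2d1 fell by 0.65 and 0.58. Of 20 other genes of mitotic entry, exit and cytokinesis 12 fell and 1 rose. The gene that rose, Wee1, encodes the kinase that places the inhibitory phosphate which CDC25 phosphatases remove. It went from 272 ± 6.28 to 504 ± 17.1, a change of 0.89 ± 0.05 (adjusted p = 0.000783). Pkmyt1, another kinase gene of this list, fell by 0.31 (adjusted p = 0.0384), and Cdc25a did not pass. Mastl, the Greatwall kinase, had a change of -1.04 ± 0.05, Plk4, which starts centriole duplication, of -0.95 ± 0.09, and the spindle protein gene Tacc3 of -0.77 ± 0.07.

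**Figure D5:**
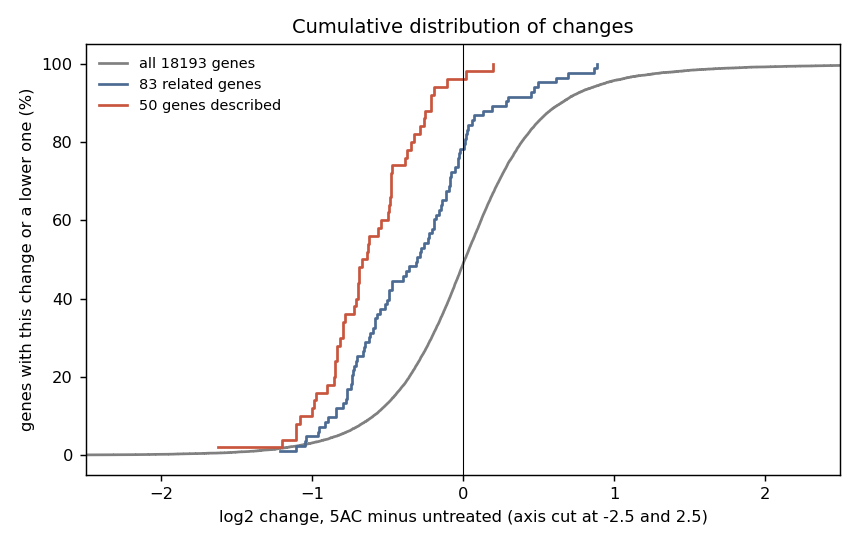
Cumulative share of genes (%) against log2 change, 5AC minus untreated, for the 50 genes, the 83 related genes and all 18193 genes, with the axis cut at -2.5 and 2.5. The medians are -0.65, -0.31 and 0.01.

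The general proliferation marker Mki67 fell with them, from 1043 ± 47.6 to 651 ± 48.4, a change of -0.68 ± 0.08 (adjusted p = 0.00333). Of 6 myoblast markers 4 fell, among them Myod1, from 508 ± 33.8 to 349 ± 17.1, and their summed intensity was 2733 to 2815 untreated and 2062 to 2120.1 treated. Pax7 was dim in both groups, at 13.2 ± 2.62 and 4.78 ± 3.47. Of 12 genes of differentiated muscle 11 rose, among them Myog, by 1.47, and their sum was 2148 to 2727 untreated and 7474 to 8107 treated. Of 10 epithelial markers 4 rose and 1 fell, with a sum of 628 to 676 untreated and 3296 to 3635 treated, in which Krt8 went from 15.9 ± 2.16 to 1991 ± 114 and Krt18 from 8.14 ± 5.16 to 711 ± 39.5, while Epcam (40.5 ± 5.84 and 39.1 ± 1.77) and Cdh1 (16.3 ± 2.26 and 13.3 ± 2.65) did not pass. Of 10 macrophage and leukocyte markers 1 rose, with sums of 267 to 282 and 267 to 274. Of 8 endothelial markers 1 fell, with sums of 100.2 to 109 and 68.2 to 104. Of 7 adipocyte and osteoblast markers measured 1 fell, with sums of 125 to 141 and 104 to 116. No marker of these lists was at or below 0 on all arrays, but many were dim. Below the median probe set in both groups were 5 macrophage and leukocyte, 5 endothelial and 5 adipocyte and osteoblast markers. The same held for 3 epithelial, 1 myoblast and 1 differentiated muscle marker. Of all genes 13.8% were lower and 15.6% higher, so single calls in the last 3 lists say little. The part of the muscle and epithelial genes, which move with the treatment, in the lower levels of mitotic transcripts was not tested.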

How the data were processed

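RNA of C2C12 cells, 3 untreated samples and 3 given 5AC, was measured on Affymetrix Mouse Genome 430 2.0 arrays. The authors deposited 1 table of linear intensity values for probe sets, with array medians of 20.3 to 21.0 and 2.42% to 2.59% of values below 0. Per the submitters' processing notes GCOS 1.4 and R 2.4.1 were used, their roles unstated. How probes were summarized and scaled is not given in the sources used here, and detection calls were not used. Values below 0 were set to 0 and log2(intensity + 1) was taken; none of the 50 genes had a value at or below 0, and no filter on low values was applied. Of 45101 probe sets, 64 controls were left out, 34945 had 1 gene symbol in the platform annotation, 932 several and 9160 none here. All 50 symbols matched RefSeq (GRCm38.p6) by Entrez number. For each of 18193 genes the probe set of highest 6-array mean was taken.

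Groups and replicate numbers came from the labels. The 2 groups were compared with limma 3.58.1 (lmFit, then eBayes, two-sided, run under R 4.3.3) over all genes, with Benjamini-Hochberg adjustment and a threshold of 0.05. The fit was tested on simulated data. The 50 genes and the lists were chosen with earlier results of these data known. Values of every array are given for the 2 genes with the largest changes of each role and for those not past the threshold. Of the related genes up to 4 per list with the largest change past the threshold are named, with Myod1, Myog and Mki67, and any others were named after their values were seen. Alternatives were a replicate block, quantile normalization, centring on medians, leaving out dim genes, other probe-set rules, an offset of 16, an intensity trend, robust moderation, array weights, a threshold of 0.01 and leaving out each array.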

Additional observations from a re-analysis of the deposited data

How the results depend on the processing

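Of the 50 genes, 35 to 46 were lower under the alternatives tried, against 44, with the fewest under a replicate block and with the mean of all probe sets (35 each), and 83 related genes gave 37 to 50, against 45. Genes higher numbered 0, but 1, Zw10, under quantile normalization, without dim genes, with an offset of 16 and with an intensity trend. Single arrays left out gave 0 higher genes among the 50, 41 to 44 related genes lower, 3689 to 4555 genes called instead of 5353, and 47 to 55 probe sets of the 50 genes lower instead of 66. With a replicate block 3237 genes were called, and 0 of the 107 probe sets of the 50 genes were lower (limma; smallest adjusted p 0.0548, and 77 at an unadjusted p under 0.05). A threshold of 0.01 gave 2860 genes and 42 probe sets. Tests of probe sets under alternatives were added after seeing the data. Whether same-numbered arrays belong together is not said in the labels. Over the 9381 genes at least as bright as the dimmest of the 50, deviations of same-numbered arrays correlated at -0.04, -0.00448 and 0.01. No array correlated best with its own number. These correlations show no sign of pairing but cannot exclude it.

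Directions that reversed were those of genes not past the threshold: Zw10 at -0.051 with the mean of all probe sets, Bub3 at -0.18 with that mean and -0.28 with a probe set lacking shared suffixes, and Nsl1, which ran from -0.35 to 0.065 with single arrays left out and was above 0 without untreated replicate 2 (0.065) or 5AC replicate 1 (0.014). The cause of these changes was not tested. Median centring shifts all genes of an array by the same amount. It therefore could not alter the gap between the 50 genes and all genes, which was -0.67. Dim probe sets, such as those of Nsl1, limit what can be read.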

Other observations

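Among the treated arrays, 5AC replicate 2 was the lowest in 38 of the 50 genes (76%), while it was the lowest in 35.8% of the 9381 genes at least as bright as the dimmest of them. 5AC replicate 3 was the highest in 31 of the 50 (62%), against 37.1%. Among the untreated arrays, replicate 2 was also the lowest most often, in 26 of the 50 (52%), against 30.6%. Untreated replicate 1 was the highest in 22 (44%), against 29.8%. Whether the low values of replicate 2 in both groups have a common source was not tested. As a percentage of the untreated mean, the median of the 50 genes was 64.1 on 5AC replicate 1, 60.7 on 5AC replicate 2 and 66.6 on 5AC replicate 3, and 98.5 to 100.4 on the untreated arrays. Without 5AC replicate 2 the median log2 change was -0.61 instead of -0.65, and 39 genes were lower.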
